A study of Mus musculus and Acomys cahirinus with 16 samples.

Results

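The genes described here are 10 that mark Langerhans cells and other dendritic cells of the skin or that build major histocompatibility complex (MHC) class II: Cd207, Epcam, Ciita, Cd74, H2-Aa, H2-Ab1, H2-Eb1, Itgax, Flt3 and Xcr1. They were chosen by symbol, and all 10 were found in the mouse table of 56980 genes and in the spiny mouse table of 19818 genes. Polyadenylated RNA was sequenced from 16 samples of whole skin, 4 in each of 4 groups. The groups were untreated and DMBA/TPA-treated skin of the mouse (Mus musculus) and untreated and DMBA/TPA-treated skin of the spiny mouse (Acomys cahirinus), a rodent known for scar-free skin repair. DMBA damages DNA and starts tumours on skin, and TPA, a phorbol ester, drives the cells it hits to divide. The labels followed here give no strain, age, sex, dose or time for any group, and do not say whether the untreated skin received the solvent. They do not say that replicates were separate animals, so p-values measure only the spread between these samples, which may be technical. Irradiated fibroblasts, which the design text is about, are not among these samples.

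Langerhans cells are dendritic cells that live in the epidermis, take up antigen and carry it to lymph nodes. They are known by langerin, the lectin encoded by Cd207, and by the adhesion molecule encoded by Epcam, which keratinocytes of the hair follicle make as well. Dendritic cells show peptides to CD4+ T cells on MHC class II, a pair of chains that H2-Aa and H2-Ab1 encode for I-A and H2-Eb1, with a further chain, for I-E. The invariant chain, encoded by Cd74, escorts these chains to the compartment where peptide is loaded. Ciita encodes the coactivator that turns class II genes on, and interferon gamma raises it through JAK signalling. Flt3 is the receptor whose ligand drives dendritic cell development, Xcr1 is the chemokine receptor of conventional type 1 dendritic cells, and Itgax encodes the CD11c integrin chain.

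CIITA does not bind DNA itself but is recruited by factors on the X and Y boxes of class II promoters, so 4 promoters of class II and loading genes that carry the letters of these boxes are shown. RefSeq promoter windows (GRCm38.p6, 250 bases before to 50 after the start) were matched for 7 of the 10 genes. The letters AACNNNTGA were searched as an X box core and TGATTGG as a Y box, on both strands, and both were chosen with the windows' letters already seen. The 2 motifs do not overlap in the windows shown. Capitals mark the matches in the stretches from 150 to 21 bases before the start, 5′ to 3′ on the gene's strand. They are chr17:34305717-34305846 (plus) for H2-Eb1, chr17:34287844-34287973 (minus) for H2-Aa, chr17:34238755-34238884 (plus) for H2-Ob, and chr17:34153041-34153170 (plus) for H2-DMb1.
H2-Eb1: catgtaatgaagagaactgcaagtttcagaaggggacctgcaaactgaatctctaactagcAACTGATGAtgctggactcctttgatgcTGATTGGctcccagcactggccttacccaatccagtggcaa
H2-Aa: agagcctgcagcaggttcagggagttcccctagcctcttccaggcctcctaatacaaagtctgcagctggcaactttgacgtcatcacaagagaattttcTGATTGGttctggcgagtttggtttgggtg
H2-Ob: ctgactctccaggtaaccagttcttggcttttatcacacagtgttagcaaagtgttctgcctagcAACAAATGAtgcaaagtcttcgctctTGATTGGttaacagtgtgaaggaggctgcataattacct
H2-DMb1: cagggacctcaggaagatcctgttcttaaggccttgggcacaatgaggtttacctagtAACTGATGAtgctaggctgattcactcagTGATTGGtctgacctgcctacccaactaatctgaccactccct

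H2-Eb1, H2-Ob and H2-DMb1 held both motifs, with the X box core starting 89, 85 and 92 bases before the start and the Y box 61, 59 and 63 bases before it. H2-DMb2, not shown, held them farther out, at 121 and 92 bases before the start. H2-Oa and H2-Eb2 held the Y box alone, 45 and 102 bases before it, and the windows of H2-DMa held neither. In H2-Aa the Y box stood 50 bases before the start, and the spelled X box core was not in the window. Neither set of letters was in the windows of Cd207, Epcam, Itgax, Flt3 and Xcr1. Of 32851 mouse promoter windows of this length, 7.82% held the Y box letters, 11.9% the X box core and 0.95% both. A match is a description of the letters, not evidence of a site.

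Mouse samples held 19608787 to 30198281 counts and spiny mouse samples 21143918 to 30561256, and 3 counts stood for a level of 0.0982 to 0.153 CPM (counts scaled to a common total). Floors of this kind cover counting error only. Levels are CPM scaled by TMM factors, a gene is called at an adjusted p under 0.05 by edgeR's quasi-likelihood test, and fold changes are log2 of treated over untreated, with the standard error (SE). Where a gene is said to rise or fall by a number with no unit, the number is a log2 fold change. Treatment moved much of the transcriptome, and the called share was 61.2% of 19740 tested mouse genes and 55.1% of 14833 tested spiny mouse genes. Higher genes made up 42.4% of the mouse calls, but 30.5% with upper-quartile factors, 28.6% on library size alone and 48.4% with DESeq2 size factors. The median log2 fold change of all mouse genes was -0.15. It moved to -0.35 with upper-quartile factors, -0.38 on library size alone and -0.05 with DESeq2 size factors. No gene among the 10 changed direction with the scaling in any comparison. One mouse library, untreated replicate 2, stood apart. Its summed level of 6 growing hair follicle genes was 1525 CPM against 5.99 to 26.6 CPM in the other untreated mouse samples, so the changes of the 10 genes and the counts of the lists that moved are also given without it.

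In mouse skin, all 5 class II genes fell with treatment. These are whole-skin levels, in which fewer cells of a type and less RNA per cell cannot be told apart. Ciita stood at 25.2, 30.3, 26.1 and 28.5 CPM in untreated replicates 1 to 4 and at 9.87, 9.80, 12.3 and 13.3 CPM in treated replicates, so the groups did not overlap. Its log2 fold change was -1.28 (SE 0.13, adjusted p 6.45e-05 by edgeR), from 27.5 ± 2.32 to 11.3 ± 1.73 CPM (SD, n = 4 each), and it was -1.14 without untreated replicate 2. The exons of Ciita overlap those of Dexi, which ran from 19.9 to 31.6 CPM in these mouse samples, and strand was not used in the counting.

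Cd74, the invariant chain gene, was measured at 698.7, 314.8, 660.6 and 655.8 CPM in untreated and at 247.9, 236.4, 301.5 and 348.5 CPM in treated mouse skin. Untreated replicate 2 lay among the treated samples, and the other 3 untreated samples lay above all of them. The log2 fold change was -1.04 (SE 0.26, adjusted p 0.00688 by edgeR), and without untreated replicate 2 it was -1.15 (adjusted p 1.32e-05).

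H2-Ab1, which encodes the beta chain of I-A, stood at 418.8, 142.4, 441.2 and 400.8 CPM untreated and at 116.4, 125.5, 149.9 and 180.2 CPM treated. H2-Aa, its alpha chain partner, ran from 367.4, 141.2, 363.1 and 315.3 CPM to 94.6, 113.4, 126.0 and 148.6 CPM. H2-Eb1, the beta chain of I-E, ran from 334.6, 135.6, 359.1 and 308.8 CPM to 92.3, 101.5, 120.6 and 147.9 CPM. In each of these genes untreated replicate 2 lay within the treated range, as it did in Cd74, whereas in Ciita it was the highest untreated sample. Log2 fold changes were -1.30 for each of the 3 genes, with SE of 0.33 for H2-Ab1 and 0.29 for H2-Aa and H2-Eb1. By edgeR, the adjusted p-values were 0.00736 for H2-Ab1, 0.00388 for H2-Aa and 0.00411 for H2-Eb1. Without untreated replicate 2 the changes of H2-Ab1, H2-Aa and H2-Eb1 were -1.46, -1.44 and -1.44.

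**Figure D1:**
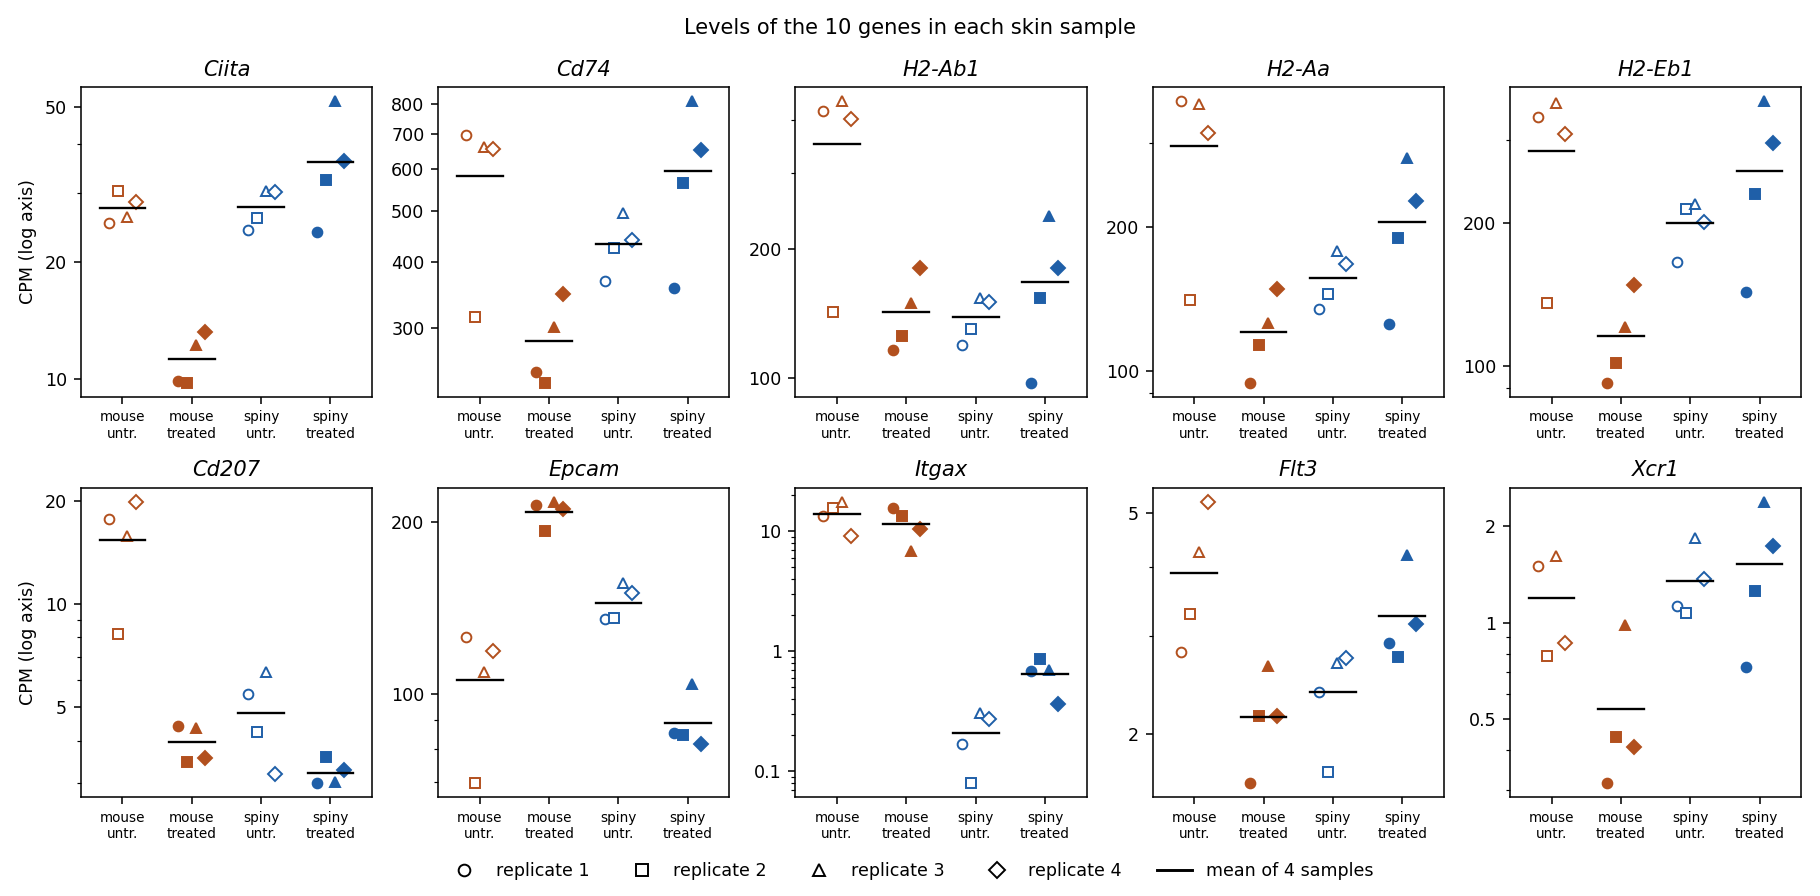
Each panel plots the level of 1 gene in CPM (log axis) in every skin sample of the 4 groups, with the marker shape giving the replicate, open markers for untreated, filled for treated, and a bar for the mean of 4 samples. In the class II panels of Cd74 and the H2 genes, mouse untreated replicate 2 (open square) sits among the treated mouse samples, and spiny mouse treated replicate 1 (filled circle) sits lowest of the treated spiny mouse samples.

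Spiny mouse skin did not show this fall. Ciita stood at 24.1, 25.9, 30.5 and 30.3 CPM in untreated and at 23.8, 32.3, 51.6 and 36.3 CPM in treated skin, with the lowest and the highest sample both treated. Its log2 fold change was 0.38 (SE 0.21, adjusted p 0.143 by edgeR). Cd74 went from 369.2, 426.1, 495.5 and 441.0 CPM to 358.0, 564.7, 807.7 and 652.0 CPM, a log2 fold change of 0.46 (SE 0.22, adjusted p 0.0975 by edgeR). For each of these genes 3 treated samples lay above all untreated ones and treated replicate 1 lay below them.

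The spiny mouse H2 genes had the same shape. H2-Ab1 stood at 119.6, 130.4, 153.8 and 150.8 CPM untreated and at 97.8, 153.9, 239.3 and 180.5 CPM treated. H2-Aa stood at 134.7, 145.1, 178.7 and 167.7 CPM untreated and at 125.2, 189.6, 279.0 and 226.8 CPM treated. H2-Eb1 stood at 165.5, 214.1, 219.3 and 201.6 CPM untreated and at 143.2, 230.2, 361.5 and 295.3 CPM treated. Their log2 fold changes were 0.28 (SE 0.23), 0.39 (SE 0.21) and 0.36 (SE 0.24), with adjusted p-values by edgeR of 0.327 for H2-Ab1, 0.145 for H2-Aa and 0.224 for H2-Eb1. With every library kept, Cd74 was called higher by the Wald test of DESeq2 (adjusted p 0.0489), and the other 4 class II genes were not called under any alternative. Without treated replicate 1 all 5 class II genes were called higher, with log2 fold changes of 0.54 for Ciita, 0.64 for Cd74, 0.57 for H2-Aa, 0.47 for H2-Ab1 and 0.57 for H2-Eb1 (adjusted p 0.0264, 0.00693, 0.0123, 0.0353 and 0.0176 by edgeR).

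The treatment effect on class II genes differed between the species. The difference of log2 fold changes, spiny mouse minus mouse, was 1.66 (SE 0.26) for Ciita, 1.499 (SE 0.36) for Cd74, 1.57 (SE 0.42) for H2-Ab1, 1.69 (SE 0.38) for H2-Aa and 1.66 (SE 0.40) for H2-Eb1. By edgeR, the adjusted p-values of these interaction terms were 0.000106 for Ciita, 0.00301 for Cd74, 0.00703 for H2-Ab1, 0.00211 for H2-Aa and 0.00354 for H2-Eb1. All 5 stayed called when any 1 of the 16 libraries was left out, with adjusted p at most 0.0188. Of 13656 genes tested for the interaction, 46.1% were called, and 21.4% of those tested had the larger value in spiny mouse. The share of interaction calls with the larger value in spiny mouse was 46.4%, and it was 36.9% with the size factors of DESeq2, 61.2% with those of the upper quartile and 66.2% from library size alone. A difference in gene models drops out of this term where it scales both treatments equally.

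**Figure D2:**
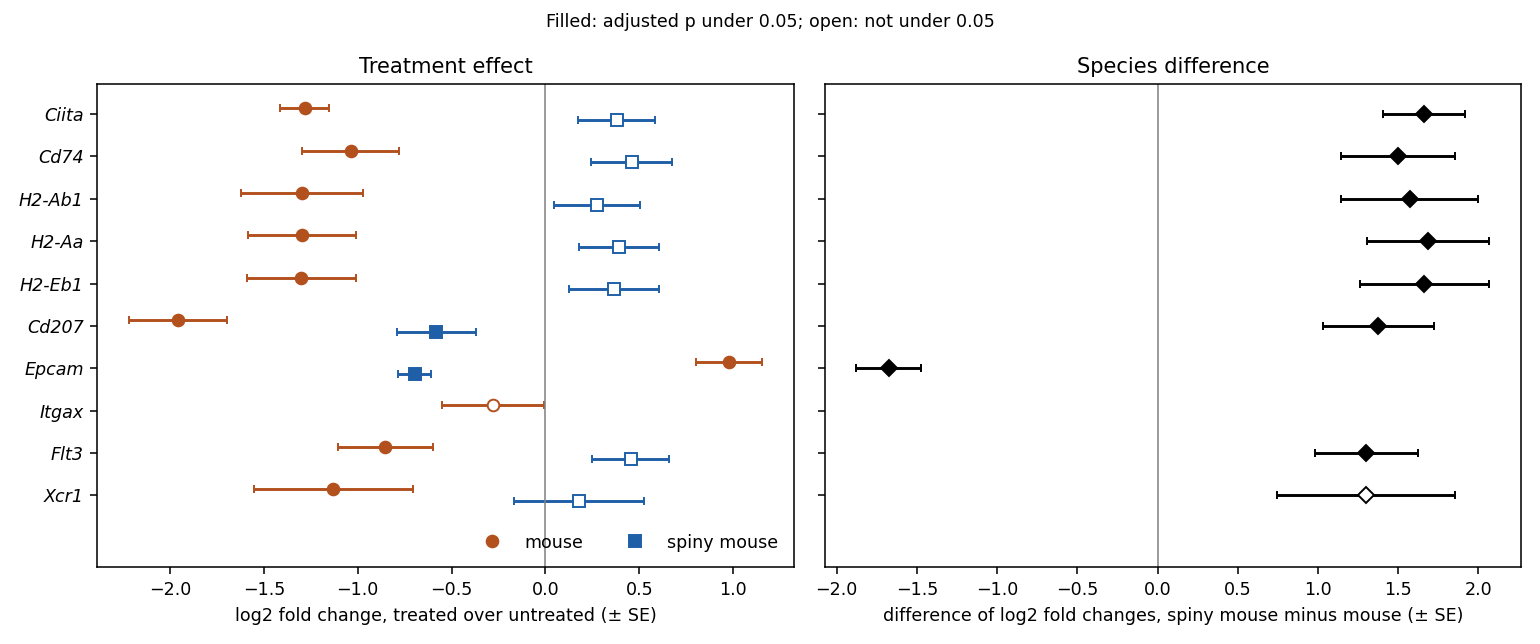
Left, log2 fold changes of treated over untreated skin with SE for the 10 genes in mouse (circles) and spiny mouse (squares). Right, the difference between the species with SE. Filled markers are called at an adjusted p under 0.05. Epcam is the gene that is higher in treated mouse and lower in treated spiny mouse skin, with a difference of -1.68, and Itgax was not tested in spiny mouse.

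Over the 10 genes, 9 were called in mouse. Only Epcam was higher and 8 were lower, beside 25.9% and 35.3% of all tested genes. Treated and untreated mouse samples were fully apart for 4 of the 10 (58.6% of all tested genes). In spiny mouse 9 were tested and 2 called, both lower, where 28.2% of all tested genes were called higher and 26.9% lower. Spiny mouse groups were fully apart for 2 of the 9 (50.9% of all tested genes). The interaction was called for 8 of 9 genes, 7 of them larger in spiny mouse, beside 46.1% and 21.4% of all tested genes. The median log2 fold change over the 10 genes was -1.21 in mouse, and over the 9 tested in spiny mouse it was 0.36, beside medians over all tested genes of -0.15 and -0.01. Without untreated replicate 2, 9 of 10 genes were called in mouse, and without treated replicate 1, 6 of 9 were called in spiny mouse, 5 of them higher. Over all genes, the mouse fit without that library called 13944, against 12085 with every library. The spiny mouse fit without its library called 7380, against 8180. Higher genes made up 48.1% of the calls in that mouse fit and 52.5% in that spiny mouse fit. Counts of the lists below that leave out a library stand beside these totals.

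The shares of single genes in the summed class II level moved by a few percentage points. Cd74 made up 39.1% ± 2.78 of the summed CPM of Cd74, H2-Aa, H2-Ab1 and H2-Eb1 in untreated and 42.9% ± 1.69 in treated mouse skin (SD, n = 4). In spiny mouse its share was 46.6% ± 0.591 and 48.8% ± 0.890, higher in every treated than in every untreated sample. H2-Ab1 made up 22.6% ± 2.20 and 21.6% ± 0.330 in mouse and 14.9% ± 0.622 and 13.6% ± 0.379 in spiny mouse, where every treated sample was below every untreated one. In mouse the groups overlapped for both of these shares. Such shares depend on gene length and annotation, so they are set between treatments and not between species.

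Per kilobase of the deposited gene length, Cd74 had the highest level of the 10 genes in all 4 groups, at 346.9 ± 106.9 and 168.9 ± 30.8 CPM per kb in untreated and treated mouse skin and 303.4 ± 36.4 and 417.4 ± 131.5 in untreated and treated spiny mouse skin (SD, n = 4). In untreated mouse skin H2-Eb1 (146.4 ± 52.2), H2-Ab1 (136.6 ± 54.5), H2-Aa (78.1 ± 28.0) and Epcam (48.2 ± 11.4) followed, each overlapping its neighbour in this order of per-kilobase levels. Cd207, Itgax, Ciita, Flt3 and Xcr1 came next, with Itgax and Ciita overlapping. Treated mouse skin had Epcam second, at 95.0 ± 4.86 CPM per kb, above H2-Eb1 at 59.5 ± 12.6, which overlapped H2-Ab1, and Cd207 overlapped Itgax. In untreated spiny mouse skin the order was H2-Eb1, H2-Ab1, H2-Aa, Epcam, Cd207, Ciita, Flt3, Xcr1 and Itgax, and treatment changed it by placing Ciita above Cd207. Overlaps there were those of H2-Eb1 with H2-Ab1 and H2-Ab1 with H2-Aa in both groups, of Cd207 with Ciita and Flt3 with Xcr1 when untreated, and of Cd74 with H2-Eb1 and Xcr1 with Itgax when treated. Xcr1 was the lowest of the 10 in both mouse groups and Itgax in both spiny mouse groups.

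H2-Ab1, H2-Aa and H2-Eb1 are neighbours in both genomes. On mouse chromosome 17 (GRCm39) they span 34476663 to 34488393 (plus strand), 34501718 to 34506797 (minus) and 34524841 to 34535648 (plus). On spiny mouse scaffold 7 (AcoCah2) they follow in the same order and on the same strands, at 1727191 to 1731913, 1742773 to 1748297 and 1759119 to 1770081.

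Cd207, the langerin gene, fell in both species, and further in mouse. It stood at 17.6, 8.16, 15.8 and 19.8 CPM in untreated and at 4.41, 3.47, 4.37 and 3.56 CPM in treated mouse skin. All treated samples lay below all untreated ones, and untreated replicate 2 was the lowest untreated sample. The log2 fold change was -1.96 (SE 0.26, adjusted p 0.000261 by edgeR), and -2.08 without that sample. In spiny mouse Cd207 stood at 5.48, 4.24, 6.33 and 3.20 CPM untreated and at 3.002, 3.57, 3.04 and 3.29 CPM treated, and untreated replicate 4 lay within the treated range. The spiny mouse log2 fold change was -0.58 (SE 0.21, adjusted p 0.0396 by edgeR).

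That spiny mouse call for Cd207 was held in 2 of 8 fits that each left out 1 library, those without untreated replicate 2 or 4. Leaving out untreated replicate 1 or 3, or any 1 of the 4 treated replicates, gave adjusted p-values between 0.0552 and 0.107. The difference between the species was 1.38 (SE 0.35, adjusted p 0.00452 by edgeR) and stayed called without any 1 library. Exons of the spiny mouse Cd207 model overlap those of Clec4f, which reached at most 0.183 CPM.

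Epcam moved in opposite directions. It stood at 125.6, 69.7, 109.2 and 118.8 CPM in untreated and at 213.7, 193.0, 216.7 and 210.7 CPM in treated mouse skin, with all treated samples above all untreated ones. The log2 fold change was 0.98 (SE 0.18, adjusted p 0.00131 by edgeR), and 0.91 without untreated replicate 2. In spiny mouse Epcam stood at 135.4, 135.6, 156.3 and 150.2 CPM untreated and at 85.5, 84.9, 104.0 and 81.8 CPM treated, all treated below all untreated. Its log2 fold change in spiny mouse was -0.70 (SE 0.09, adjusted p 0.000227 by edgeR), and the difference between the species was -1.68 (SE 0.20, adjusted p 1.3e-05 by edgeR).

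Genes of epithelial compartments moved beside Epcam. Over all tested genes, 25.9% were called higher in mouse, and 28.2% higher and 26.9% lower in spiny mouse. All 6 growing hair follicle genes rose in mouse, where their summed level was 5.99 to 1525 CPM untreated and 16480 to 17730 CPM treated. In spiny mouse 2 of the 6 fell (1 without treated replicate 1), which was near the 26.9% over all tested genes. The spiny mouse sums ran from 816.1 to 8555 CPM untreated and from 154.2 to 2422 CPM treated. Mouse untreated replicate 2 had the highest follicle sum and the lowest Epcam of the untreated mouse samples. Of 6 epidermal keratinocyte genes, 4 rose in each species (5 in mouse without untreated replicate 2), with sums of 6408 to 12770 and 19780 to 28400 CPM in mouse and of 12780 to 16040 and 22870 to 29350 CPM in spiny mouse. The part of these cells in the Epcam result was not tested.

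The dendritic cell receptors were low. Flt3 stood at 2.81, 3.29, 4.25 and 5.24 CPM in untreated and at 1.63, 2.15, 2.66 and 2.15 CPM in treated mouse skin, with no overlap. Its log2 fold change was -0.85 (SE 0.25, adjusted p 0.0159 by edgeR), and -0.83 without untreated replicate 2. The Flt3 call was lost without untreated replicate 3 (adjusted p 0.0502), treated replicate 1 (0.0515) or treated replicate 2 (0.0564), and with no filter on low counts (0.0526). In spiny mouse Flt3 stood at 2.38, 1.71, 2.69 and 2.74 CPM untreated and at 2.91, 2.75, 4.21 and 3.15 CPM treated. The spiny mouse groups did not overlap, but the log2 fold change of 0.45 (SE 0.21) had an edgeR adjusted p of 0.0877. The difference between the species was 1.30 (SE 0.32, adjusted p 0.00399 by edgeR).

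Xcr1 stood at 1.51, 0.789, 1.61 and 0.866 CPM in untreated and at 0.315, 0.440, 0.982 and 0.408 CPM in treated mouse skin, and treated replicate 3 lay within the untreated range. Exons of the mouse Xcr1 model overlap those of Gm57030, which ran from 0.218 to 0.592 CPM. The Xcr1 log2 fold change was -1.13 (SE 0.42, adjusted p 0.0417 by edgeR). The call was lost without untreated replicate 1 or 3 or treated replicate 1, 2 or 4, with adjusted p between 0.0995 and 0.125. It was also lost with the size factors of DESeq2 (0.0523) and with no filter on low counts (0.0955), and without untreated replicate 2 the change was -1.18 (0.0171). In spiny mouse Xcr1 stood at 1.12, 1.07, 1.84 and 1.37 CPM untreated and at 0.728, 1.25, 2.38 and 1.74 CPM treated, a log2 fold change of 0.18 (SE 0.35, adjusted p 0.685 by edgeR) that turned to -0.13 without treated replicate 3. The difference between the species, 1.30 (SE 0.56), was not called (adjusted p 0.0669 by edgeR), but was called without mouse untreated replicate 2, mouse treated replicate 3, spiny mouse untreated replicate 3 or spiny mouse treated replicate 1 (adjusted p 0.0185 to 0.0487).

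Itgax stood at 13.4, 15.7, 17.5 and 9.11 CPM in untreated and at 15.5, 13.3, 6.80 and 10.5 CPM in treated mouse skin, and the groups overlapped. Its log2 fold change was -0.28 (SE 0.27, adjusted p 0.395 by edgeR), and -0.13 without untreated replicate 2. In spiny mouse it had 5, 2, 9 and 6 counts untreated and 15, 24, 19 and 8 treated, which is 0.0793 to 0.306 and 0.366 to 0.858 CPM. These counts did not pass the low-count filter. With a minimum mean of 10 counts in place of that filter, its spiny mouse log2 fold change was 1.64 (adjusted p 0.00838 by edgeR). Every untreated sample had fewer than 10 counts, so Itgax passed that minimum through the treated samples alone, which favours a rise. With no low-count filter the change was 1.65 (adjusted p 0.00911 by edgeR), from the same low counts. The deposited Itgax length was 2677 bases in the spiny mouse table and 4803 in the mouse table.

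Because the samples are whole skin, the 10 genes were also set against 6 pan-leukocyte genes (Ptprc, Coro1a, Laptm5, Cd53, Lcp1 and Cd52). In mouse 2 of the 6 fell and none rose (5 fell without untreated replicate 2). With every library kept, the 2 of 6 were near the 35.3% of all tested mouse genes called lower. The summed level of the 6 genes was 373.7 ± 128.4 CPM untreated and 250.1 ± 34.3 CPM treated (SD, n = 4). All 6 rose in spiny mouse (28.2% of all tested genes), where the sum went from 281.7 ± 33.7 to 757.0 ± 131.8 CPM. Ptprc, the CD45 gene, had log2 fold changes of -1.24 in mouse and 1.44 in spiny mouse (adjusted p 0.000152 and 8.4e-05 by edgeR).

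Relative to that sum, 6 of the 10 genes had all treated mouse samples below all untreated ones (Cd207, Ciita, H2-Ab1, H2-Aa, H2-Eb1 and Cd74), as did 12.6% of all tested genes. The log2 ratio of Cd207 was -4.61 ± 0.420 untreated and -5.98 ± 0.281 treated in mouse (SD, n = 4), and that of H2-Ab1 was -0.15 ± 0.390 and -0.82 ± 0.105. The ratio of Cd74 went from 0.64 ± 0.279 to 0.17 ± 0.065. In spiny mouse all 9 tested genes had treated ratios below every untreated ratio, but so did 88.0% of all tested genes, since the sum they are divided by rose. There the ratio of Cd74 went from 0.62 ± 0.039 to -0.39 ± 0.286 and that of Cd207 from -5.91 ± 0.431 to -7.86 ± 0.297.

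**Figure D3:**
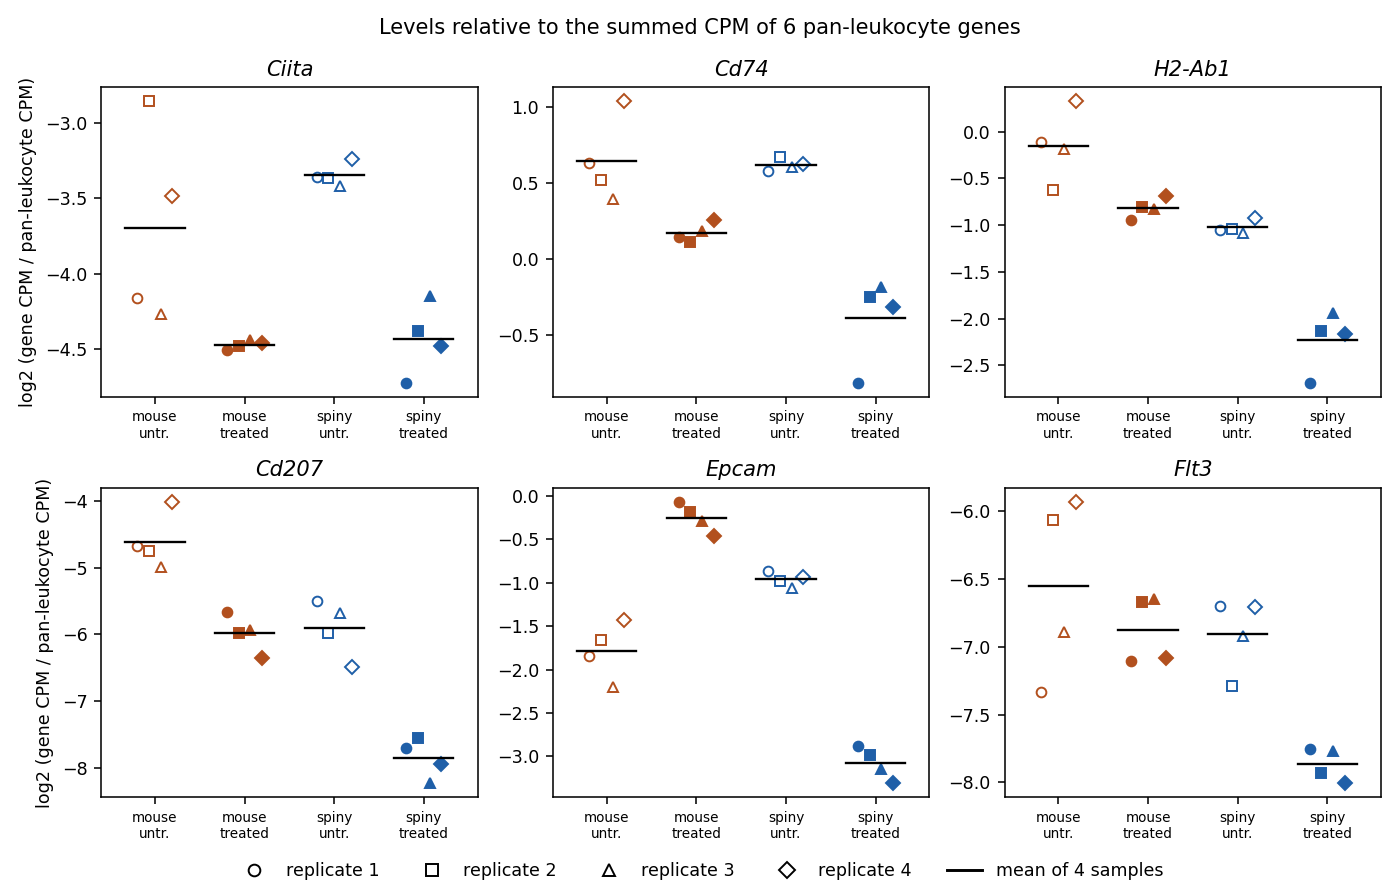
Each panel plots log2 of a gene's CPM over the summed CPM of 6 pan-leukocyte genes in every sample, with markers as in the plot of levels and a bar for the mean of 4 samples. Mouse treated samples lie below all untreated ones for Ciita, Cd74, H2-Ab1 and Cd207, above them for Epcam, and overlap them for Flt3, and spiny mouse treated samples lie below untreated ones in all 6 panels.

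How the class II genes varied within groups was described by the correlation of deviations from group means over the 8 samples of a species, which share library and depth. With Cd74, the deviations of H2-Aa, H2-Ab1 and H2-Eb1 had Pearson r of 0.97, 0.99 and 0.98 in mouse, where untreated replicate 2 carries much of the spread, and of 0.99 for each in spiny mouse. Ciita followed Cd74 in spiny mouse (r 0.96) and not in mouse (r 0.01). Xcr1 had r of 0.96 with Cd74 in spiny mouse and 0.49 in mouse. Cd207 had r of 0.82 with Cd74 in mouse and 0.07 in spiny mouse. Epcam, which keratinocytes also express and which moved the other way with treatment in mouse, had r of 0.92 with Cd74 and 0.96 with Cd207 there, and 0.59 and -0.06 in spiny mouse.

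Of the genes whose log2 CPM averaged at least 3, those most like Cd74 by this measure in spiny mouse were Arhgdib, Fcgr4, Shisa5, Parp14 and Fam78a (r 0.978 to 0.983). In mouse they were mt-Tc, Fibp, Psmb8, Acaa2 and Ifih1 (r 0.992 to 0.996). The genes most like Cd207 were Med19, Tmprss4, Tmem177, Chit1 and Kctd20 in mouse (r 0.993 to 0.997) and Ndufa6, Il1rl1, Rps15a, Vti1b and Gpr108 in spiny mouse (r 0.923 to 0.975). All of these are the highest values among 11423 genes in mouse and 11052 in spiny mouse, over 8 samples. Picking the highest of so many favours high values, and how high they would run without any tie between the genes was not tested.

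Genes that load and transport class II molecules were called in both directions. Of 14 listed, 12 were tested in each species. In mouse 5 fell and 2 rose (median log2 fold change -0.68), or 7 and 3 of 13 without untreated replicate 2 (median -0.47). In spiny mouse 8 rose and 1 fell (median 0.48). For this and the lists that follow, the shares of all tested genes called higher and lower were 25.9% and 35.3% in mouse and 28.2% and 26.9% in spiny mouse. The 7 of 12 called in mouse were thus near the 61.2% called over all genes. The falls in mouse included H2-DMa, a chain of the peptide exchange factor DM, with a log2 fold change of -1.38 (adjusted p 0.00225 by edgeR), and H2-Ob, a chain of its inhibitor DO, with -1.67 (adjusted p 0.0059 by edgeR). H2-DMb1 and H2-DMb2 fell by 1.14 and 1.31 on the log2 scale in mouse (adjusted p 0.00526 and 0.000738 by edgeR). In spiny mouse H2-DMa stood at 35.5 ± 4.08 and 36.8 ± 8.77 CPM (log2 fold change 0.05, SE 0.16, with exons that overlap those of Brd2 in both annotations), and H2-Ob rose by 1.17 (adjusted p 0.00435 by edgeR). The models of H2-DMb1 and H2-DMb2 overlap each other in the spiny mouse annotation and were near 0 there. H2-Oa, the other DO chain, was at 0.615 ± 0.212 and 0.795 ± 0.155 CPM in spiny mouse (log2 fold change 0.36, adjusted p 0.325 by edgeR) and was not tested in mouse.

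The proteases of the pathway were measured as well. Ctsl, the cathepsin L gene, rose by 2.54 (log2) in mouse and by 0.97 in spiny mouse (adjusted p 8.18e-05 and 0.000222 by edgeR). Ctss, the gene of cathepsin S, which trims the invariant chain in dendritic cells, rose in spiny mouse by 1.07 (log2, adjusted p 0.000631 by edgeR). In mouse its log2 fold change was -0.96 (adjusted p 0.0508 by edgeR), called lower without untreated replicate 2 (adjusted p 0.00153) or 4 (0.0422). Lgmn, an asparaginyl endopeptidase gene, rose by 1.12 (log2) in spiny mouse (adjusted p 4.67e-05 by edgeR) and was at 0.15 in mouse (adjusted p 0.627 by edgeR). The interaction was called for 8 of 10 tested genes of the list, 6 of them larger in spiny mouse (46.1% and 21.4% of all tested genes).

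Upstream of Ciita, 10 of 14 tested regulators and promoter factors rose in spiny mouse and 1 fell (median log2 fold change 0.40), whereas in mouse 3 rose and 3 fell (median 0.06), or 6 and 3 without untreated replicate 2. In spiny mouse Socs1, the feedback inhibitor of this signalling, rose by 1.69 (log2, adjusted p 0.000129 by edgeR) and Jak2 by 1.36 (adjusted p 3.91e-05 by edgeR). Ifngr1, the ligand-binding chain of the interferon gamma receptor, fell by 0.91 (log2) in mouse and rose by 0.99 in spiny mouse, a difference of 1.91 (SE 0.22, adjusted p 9.09e-06 by edgeR). Irf1, which binds a Ciita promoter, fell by 0.69 (log2) in mouse and rose by 1.01 in spiny mouse (adjusted p 0.00454 and 0.0061 by edgeR). Socs1 in mouse had a log2 fold change of 0.59 (adjusted p 0.0406 by edgeR), and its call held in 4 of 8 fits without 1 library.

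Ifng itself was at 0.121 ± 0.113 and 0.0311 ± 0.0416 CPM in mouse and at 0.0439 ± 0.0642 and 0.358 ± 0.275 CPM in spiny mouse, too low to be tested. Rfx5, a subunit of the factor that binds the X box, fell by 0.50 (log2) in spiny mouse (adjusted p 0.00156 by edgeR) and had -0.41 in mouse (adjusted p 0.0878 by edgeR). The Rfx5 change in mouse was called lower with upper-quartile factors (adjusted p 0.0303) and with library size alone (0.0222).

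Among 18 genes of Langerhans cell development and residence, 5 rose and 6 fell in mouse and 8 rose and 4 fell in spiny mouse (medians -0.00017 and 0.24). The mouse count, 11 of 18, was at the 61.2% called over all tested genes, and the spiny mouse count, 12 of 18, stands beside 55.1%. Without untreated replicate 2, 7 rose and 7 fell in mouse (median 0.12), and without treated replicate 1, 7 rose and 2 fell in spiny mouse. Il34, the keratinocyte ligand that maintains Langerhans cells, fell in both, from 40.6 ± 11 to 9.49 ± 0.932 CPM in mouse (log2 fold change -2.10, adjusted p 5.04e-05 by edgeR) and from 58.3 ± 10.1 to 23.0 ± 1.42 CPM in spiny mouse (-1.34, adjusted p 4.61e-05 by edgeR). Its receptor gene Csf1r had log2 fold changes of -0.55 in mouse (adjusted p 0.0285 by edgeR, called in 3 of 8 fits without 1 library) and 0.19 in spiny mouse (adjusted p 0.141 by edgeR). Ahr, the aryl hydrocarbon receptor gene, fell by 1.09 (log2) in mouse and 0.47 in spiny mouse (adjusted p 0.000353 and 0.0177 by edgeR). Cd24a, which keratinocytes also express, rose by 1.94 (log2) in mouse (adjusted p 5.46e-05 by edgeR). Its log2 fold change in spiny mouse was 0.685, called in 8 of 8 fits without 1 library. In spiny mouse Tgfb1 rose by 0.97 (log2) and Spi1, the gene of the myeloid factor PU.1, by 0.98 (adjusted p 0.000124 and 0.000618 by edgeR). Tgfb1 also rose in mouse, by 0.48 (log2, adjusted p 0.00242 by edgeR), and Spi1 had -0.48 there (adjusted p 0.183 by edgeR).

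The list for type 1 conventional dendritic cells also holds the ligand genes Flt3l and Xcl1 and Cd8a, so its counts are not of these cells alone. Of its 10 genes, 8 fell and none rose in mouse (median log2 fold change -0.78). In spiny mouse 4 rose and 2 fell (median 0.41). Without untreated replicate 2, 7 fell in mouse, and without treated replicate 1, 5 rose and 2 fell in spiny mouse. Flt3l, the ligand of Flt3, whose mouse exons overlap those of Gm45713, fell from 7.27 ± 1.04 to 1.92 ± 0.419 CPM in mouse, a log2 fold change of -1.92 (SE 0.21, adjusted p 8.07e-05 by edgeR). In spiny mouse it stood at 9.0 ± 0.671 and 9.17 ± 1.82 CPM (log2 fold change 0.03, SE 0.15), and the difference between the species was 1.94 (SE 0.24, adjusted p 1.85e-05 by edgeR). Xcl1, the ligand of Xcr1, fell in both, by 3.50 (log2) in mouse and 1.81 in spiny mouse (adjusted p 0.00113 and 0.00152 by edgeR). Batf3, a factor these cells need, fell by 1.30 (log2) in mouse (adjusted p 0.00528 by edgeR). In spiny mouse Irf8 rose by 0.85 (log2) and Cd8a, also a T cell gene, by 1.73 (adjusted p 0.0051 and 0.00886 by edgeR). Irf8 in mouse had -0.60 (adjusted p 0.0123 by edgeR), a call that was lost without treated replicate 2 (adjusted p 0.055). The interaction was called for 9 of the 10 genes, 8 of them larger in spiny mouse (46.1% and 21.4% of all tested genes).

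**Figure D4:**
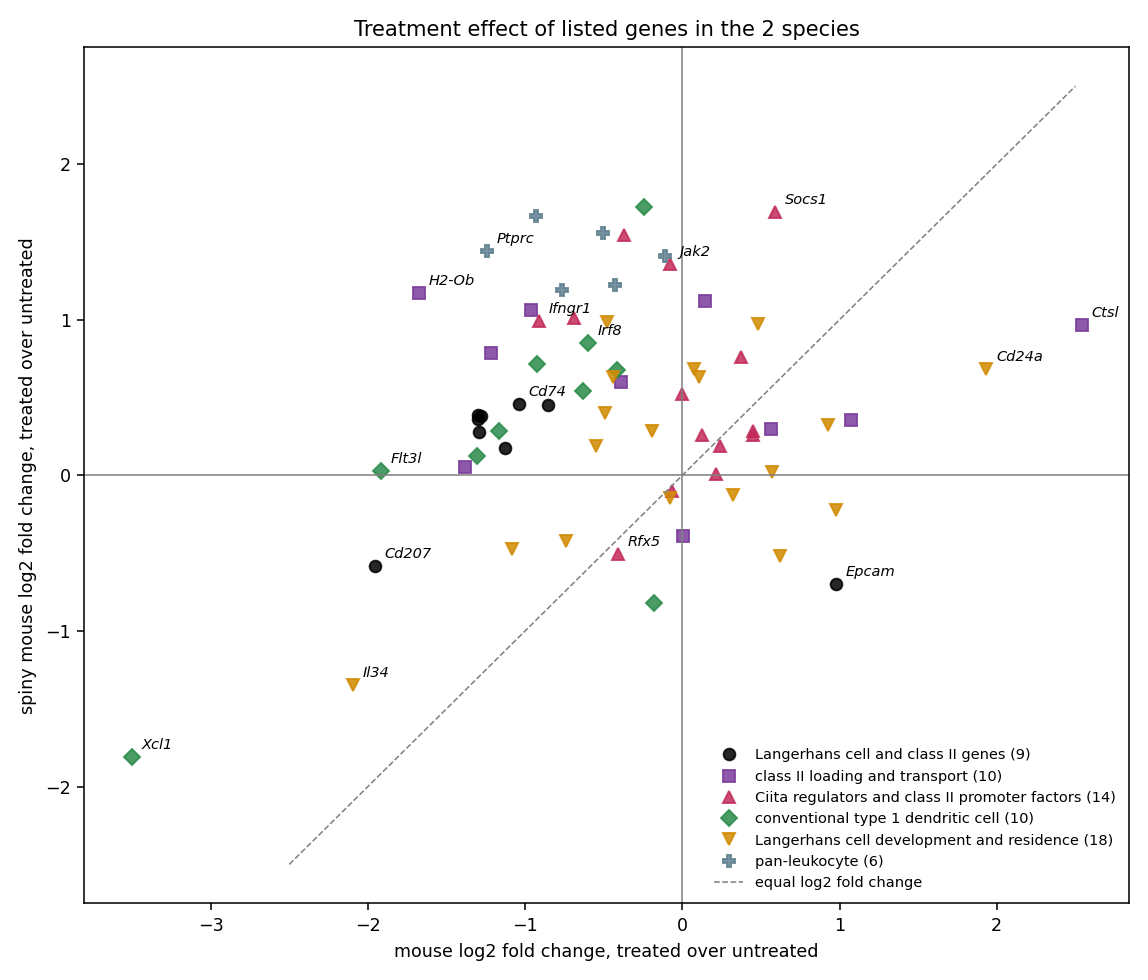
Each marker is a gene of 6 lists tested in both species, placed by its log2 fold change of treated over untreated skin in mouse (horizontal) and in spiny mouse (vertical), with the dashed line marking equal changes. Cd74, Ptprc, H2-Ob and Ifngr1 lie in the upper left, lower in mouse and higher in spiny mouse, and Il34, Xcl1 and Cd207 lie in the lower left, lower in both.

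Of 8 type 2 conventional dendritic cell genes, 4 fell and none rose in mouse (median -0.56), where Mgl2, Irf4 and Cd209a had log2 fold changes of -1.49, -1.44 and -1.42 (adjusted p 0.00148, 3.31e-05 and 0.00749 by edgeR). Without untreated replicate 2, 4 fell and 1 rose in mouse. In spiny mouse 6 were tested, 2 rose and 2 fell (median 0.09), or 2 and 1 without treated replicate 1. Ltb rose by 1.61 (log2) and Cd209a by 1.25 there (adjusted p 0.000146 and 0.00103 by edgeR). Irf4 had a log2 fold change of -0.55 in spiny mouse, called in 5 of 8 fits without 1 library.

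Genes of dendritic cell maturation and migration were called in both directions, with 3 rising and 5 falling of 13 tested in mouse (median -0.39) and 7 rising and 4 falling of 13 in spiny mouse (median 0.43, and 5 and 1 called without treated replicate 1). Without untreated replicate 2, 3 rose and 6 fell in mouse. The 8 of 13 called in mouse were near the 61.2% called over all tested genes. Ccr7, the receptor that leads dendritic cells to lymph nodes, rose from 0.821 ± 0.320 to 2.30 ± 0.430 CPM in mouse (log2 fold change 1.48, adjusted p 0.00456 by edgeR) and from 2.10 ± 0.550 to 9.599 ± 2.27 CPM in spiny mouse (2.19, adjusted p 8.33e-05 by edgeR). Fscn1, an actin-bundling protein gene of mature dendritic cells and other cells, rose by 2.89 (log2) in mouse (adjusted p 2.64e-06 by edgeR). Its log2 fold change in spiny mouse was 0.88, called in 4 of 8 fits without 1 library. Cd80, a costimulator gene, rose by 1.41 (log2) in spiny mouse (adjusted p 4.03e-05 by edgeR). Cxcl14, an epithelial chemokine gene, rose by 2.06 (log2) in mouse and fell by 1.52 in spiny mouse (adjusted p 2.11e-05 and 3.63e-05 by edgeR). Ccl19, a ligand of Ccr7, fell by 1.81 (log2) in mouse (adjusted p 0.00667 by edgeR). It had no counts in spiny mouse, where its exons overlap those of Gm12407, so a lack of expression cannot be read from this.

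Other cells that can carry class II or these markers were measured in the same samples. Of 10 macrophage genes, 2 fell in mouse (5 without untreated replicate 2), and 6 of the 9 tested in spiny mouse rose (7 without treated replicate 1), with summed levels of 596.7 to 1915 and 674.3 to 1009 CPM in mouse and of 395.7 to 472.4 and 885.8 to 1491 CPM in spiny mouse. T cell genes gave 1 rise and 3 falls of 6 in mouse and 3 rises of 5 in spiny mouse (5 without treated replicate 1), with sums of 20.3 to 27.8 and 13.3 to 16 CPM in mouse and of 27.7 to 44.4 and 51.7 to 83.8 CPM in spiny mouse. B cell genes summed to at most 4.52 CPM in any sample, and 2 of the 6 listed were high enough to test in mouse (1 fell, or both without untreated replicate 2) and 3 in spiny mouse. All 5 tested plasmacytoid dendritic cell genes fell in mouse (4 of 6 without untreated replicate 2), and 2 of 5 rose in spiny mouse, with sums of 182.8 to 221.5 and 116.4 to 141.9 CPM in mouse and of 126.2 to 169.0 and 130.0 to 148.2 CPM in spiny mouse. That list holds Siglech, Tcf4, Spib, Tlr7, Tlr9 and Ccr9, and the mouse exons of Ccr9 overlap those of Slc6a20a. Its sums are thus not a measure of plasmacytoid dendritic cells alone. Skeletal muscle genes fell in both, 6 of 6 in mouse and 5 of 5 in spiny mouse. The part of these cells in the class II results was not tested.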

How the data were processed

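Transcript levels were measured in 16 skin samples. The values are raw counts of read pairs per gene, which the authors deposited as 1 table for each species. Per the file headers, pairs with both ends mapped were counted with featureCounts 2.0.3 and no strand option appears, so overlapping genes on opposite strands cannot be told apart. Trim Galore, HISAT2 and GRCm39 are named in the submitters' processing notes. The table for spiny mouse used AcoCah2, per the file headers. Mouse identifiers were named from the GENCODE annotation of the same build.

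The names of untreated columns differ from those in the labels, and their species letter and number gave the sample. Each species was filtered with filterByExpr, scaled with TMM and tested with edgeR 4.0.16 in R 4.3.3 (quasi-likelihood F test, Benjamini-Hochberg over all genes tested). The species difference was the interaction term over symbols tested in both. SE is the log2 fold change divided by the square root of F. Group comparisons of ratios and per-length levels carry no test. On simulated data, 91.4% of 2-fold changes were recovered for mouse (20307 genes) and 84.4% for the interaction (13727 genes). The simulation gave every gene the same spread and changed few genes, with no library standing apart. Those shares therefore do not say how many real changes were found in these samples.

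The 10 genes and the other lists were chosen with earlier results of these data known. The named genes were the 10 genes, up to 3 called genes with the largest change per list and species, and their ligands, receptors and regulators. H2-DMb1 and H2-DMb2 were added after their values were seen. Some listed genes are not reported here. Alternatives were other scalings, DESeq2 1.42.0, other filters, a replicate block and leaving out each library. Counts per list without mouse untreated replicate 2 or spiny mouse treated replicate 1 were added after seeing the data.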

Additional observations from a re-analysis of the deposited data

Results flagged for a closer look

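For the 10 genes the 4 samples of each group were checked for a sample far from the others, in 40 groups in all. Chance flags about 1 in 20 groups, and 3 samples were flagged. Mouse untreated replicate 2 was far below the other untreated mouse samples in Cd74 (314.8 CPM) and in H2-Ab1 (142.4 CPM). Spiny mouse treated replicate 3 was above the other treated spiny mouse samples in Epcam (104.0 CPM).

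The treatment effect differed between mouse and spiny mouse by the edgeR interaction test for 8 genes, where 46.1% of all tested genes were called. Spiny mouse minus mouse, the difference of log2 fold changes was 1.38 for Cd207, -1.68 for Epcam, 1.66 for Ciita, 1.499 for Cd74, 1.69 for H2-Aa, 1.57 for H2-Ab1, 1.66 for H2-Eb1 and 1.30 for Flt3. The adjusted p-values ran from 1.3e-05 for Epcam to 0.00703 for H2-Ab1.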

How the results depend on the processing

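With every library kept, 7 to 9 of the 10 genes were called in mouse under the alternatives, 1 to 3 in spiny mouse and 8 or 9 for the species difference. The last 2 counts include Itgax with no low-count filter and with a minimum mean of 10 counts. Itgax was not tested in spiny mouse in the main fit. With the replicate block, these counts were 9 in mouse, 1 in spiny mouse and 9 for the species difference. Cd207 in spiny mouse then lost its call (log2 fold change -0.54, adjusted p 0.0909), and the species difference of Xcr1 was then called (adjusted p 0.0331). Same-numbered samples had mean correlations of deviations of 0.0094 in mouse and -0.36 in spiny mouse. Differently numbered samples had means of -0.0032 and 0.12, and single spiny mouse pairs of them ran from -0.53 to 0.53. With so wide a spread this measure cannot decide whether the numbers pair the samples. Leaving out 1 library gave 7 to 9 genes in mouse, 1 to 6 in spiny mouse (6 without treated replicate 1, and 1 without treated replicate 2 or 3) and 8 to 10 for the difference. The tenth was Itgax, which passed the filter in some of those fits through its treated spiny mouse samples. In those fits Itgax is also among the spiny mouse calls.

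Among the named genes the sign changed only where no call was made. In mouse the Jak2 log2 fold change became 0.0186 with DESeq2 size factors, 0.0176 with its Wald test and 0.0675 with no filter, and that of Lgmn became -0.0454 with the upper quartile and -0.0797 from library size. Flt3l in spiny mouse became -0.0112 with the upper quartile, and the species difference of Rfx5 became 0.0891 with it and 0.145 from library size. Over fits without 1 library, mouse values ran from -0.102 to 0.0359 for Jak2 and from -0.35 to 0.0059 for Cd80. Spiny mouse values ran from -0.125 to 0.404 for Xcr1, -0.101 to 0.18 for H2-DMa, -0.0621 to 0.158 for Flt3l and -0.204 to 0.392 for Batf3. Counts of at most 24 a library limit Itgax in spiny mouse. The causes were not tested.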
